A study of Mus musculus with 12 samples.

Results

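Carboxylesterases are serine hydrolases that cleave ester bonds in lipids, drugs and other foreign compounds. In the mouse they form several subfamilies, and the enzymes described here belong to Ces1 and Ces2. Most sit in the endoplasmic reticulum. Ces1 enzymes are known mainly from liver and fat, where they act on stored lipid, whereas Ces2 enzymes are characteristic of the intestinal epithelium, where they hydrolyse acylglycerols and activate or inactivate oral drugs. The 8 genes were chosen by symbol from the deposited table of 35841 genes: Ces1d, Ces1f and Ces1g of subfamily 1, and Ces2a, Ces2b, Ces2c, Ces2e and Ces2g of subfamily 2. The choice was made with earlier results of these data known. All 8 were found and all 8 passed the filter on low counts. The table lists 12 further carboxylesterase genes.

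The measurements came from RNA sequencing of colon tissue from wild-type mice in 4 groups of 3 libraries. Ctrl received neither agent, ImP received ImP, DSS received dextran sulfate sodium, a polymer toxic to colonic epithelium that serves to provoke colitis, and DSS_ImP received both. The labels give no strain, age or dose and do not spell out ImP; the series title names polysaccharides of Angelica dahurica, and its text gives a treatment of 7 days. Nothing states whether the libraries came from separate animals, so p-values measure the spread between these samples, which may be technical. Levels are counts relative to library size (CPM) and mean ± SD has n = 3; comparisons between genes use FPKM, which also divides by transcript length. Changes are log2 ± SE from edgeR's quasi-likelihood test, and a gene is said to have fallen or risen only where its p, adjusted by Benjamini-Hochberg across all 22279 tested genes, was under 0.05.

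Total counts ran from 55419380 to 67406087 per library. At this depth a count of 0 allows a level of up to 0.217 CPM, by counting error only. A trace of liver transcripts set 4 of the 12 libraries apart. Albumin (Alb) lay between 37.0 and 46.2 CPM in Ctrl 1, Ctrl 4, Ctrl 5 and DSS 2, and at no more than 1.10 CPM in the other 8. Since liver expresses carboxylesterases, the falls called against Ctrl are revisited below with this trace taken into account. The tissue's own markers were present throughout: 12 epithelial markers summed to between 15452 and 21055 CPM in every library.

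Seen over all groups, the family was most abundant in Ctrl and least in DSS_ImP. The summed level of the 8 genes was 564 ± 45.1 FPKM in Ctrl, 294 ± 59.8 in ImP, 320 ± 13.5 in DSS and 163 ± 7.67 in DSS_ImP. The 3 DSS_ImP libraries, at 155 to 170 FPKM, lay below all others, and the 3 Ctrl libraries, at 516 to 606 FPKM, above all others, while ImP (251 to 362) and DSS (305 to 332) overlapped. The Ces1 genes supplied 30.2% to 34.0% of this sum in Ctrl, 17.8% to 24.6% in ImP, 11.9% to 17.0% in DSS and 16.02% to 19.1% in DSS_ImP. The share of Ces1 in Ctrl therefore lay above that of every library of the other groups.

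**Figure D1:**
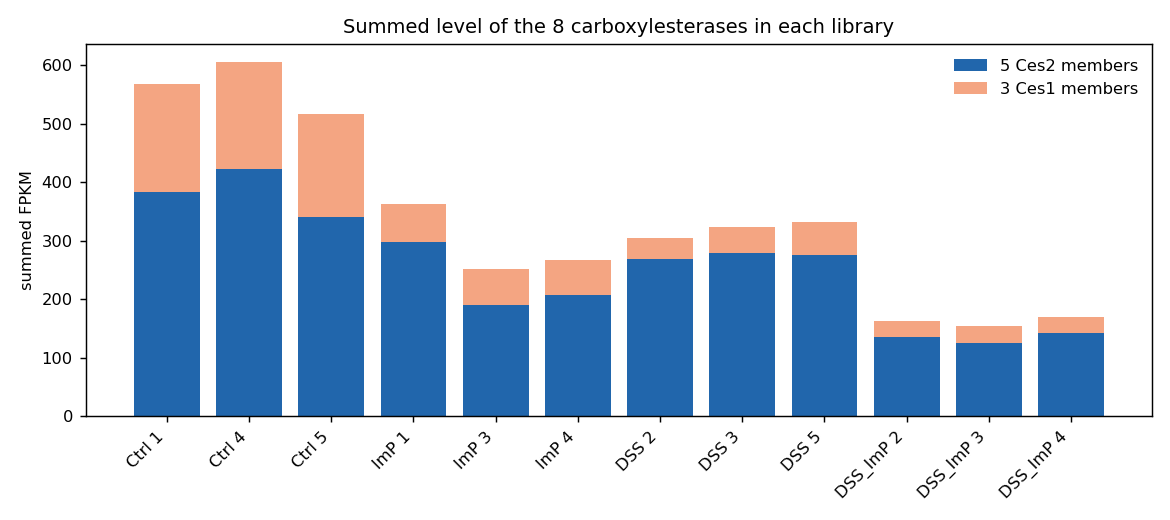
Summed FPKM (vertical axis) of the 5 Ces2 members (blue) and the 3 Ces1 members (orange) in each of the 12 libraries. The Ctrl libraries stand highest at 516 to 606 FPKM, and the DSS_ImP libraries lowest at 155 to 170 FPKM.

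Among themselves the genes kept nearly the same order of level per transcript length. Ces2c led in every group, at 177 ± 12.5 FPKM in Ctrl, followed by Ces2e (109 ± 14.4) and Ces2a (90.7 ± 16.3), whose Ctrl libraries overlapped. Next in Ctrl came Ces1g (65.7 ± 7.38 FPKM), Ces1d (62.4 ± 7.30) and Ces1f (53.0 ± 4.71), each overlapping its neighbour. Ces2b (4.54 ± 0.70 FPKM) and Ces2g (1.59 ± 0.47) were far lower. The place of Ces1g changed between groups: it stood in position 4 in Ctrl and in position 6 in DSS and in ImP, where its libraries, at 9.92 ± 1.92 and 13.1 ± 2.45 FPKM, lay below all those of Ces1f.

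Ces1g (ENSMUSG00000057074), an esterase known in mouse liver for hydrolysing triacylglycerol and cholesteryl ester, differed most from Ctrl among the 8 in DSS. It also had the lowest value in ImP, except that Ces2b was marginally lower without ImP 1 (-2.52 against -2.51) and with the liver trace as a term (-2.82 against -2.80). It measured 208 CPM in Ctrl 1, 190 in Ctrl 4 and 155 in Ctrl 5. In ImP 1, 3 and 4 it measured 45.1, 32.1 and 32.7 CPM, and in DSS 2, 3 and 5 it measured 21.3, 31.7 and 28.4 CPM. The DSS_ImP libraries 2, 3 and 4 gave 21.5, 27.4 and 13.0 CPM. Every treated library thus lay well below every Ctrl library, while the 3 treated groups lay close together: ImP stood at 19.9%, DSS at 14.7% and DSS_ImP at 11.2% of the Ctrl mean. Ces1g fell by 2.76 ± 0.26 on the log2 scale in DSS (6.79-fold lower, adjusted p = 0.000943) and by 2.33 ± 0.25 in ImP (5.03-fold lower, adjusted p = 0.00472). Its difference between DSS_ImP and DSS, -0.40 ± 0.24, did not pass (adjusted p = 0.361; 95% interval -0.93 to 0.13), nor did that between DSS_ImP and ImP, -0.83 ± 0.24 (adjusted p = 0.0547, and 0.029 without DSS_ImP 3).

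Ces1d (ENSMUSG00000056973), known as triacylglycerol hydrolase, mobilises stored lipid in liver and fat. Its levels were 164, 165 and 190 CPM in Ctrl 1, 4 and 5, and 76.6, 69.7 and 74.2 CPM in ImP 1, 3 and 4. They were 41.0, 46.1 and 69.0 CPM in DSS 2, 3 and 5, and 32.1, 32.3 and 36.8 CPM in DSS_ImP 2, 3 and 4. The 4 groups did not overlap and descended from Ctrl through ImP and DSS to DSS_ImP, although ImP 3 lay only just above DSS 5. Ces1d fell in DSS (-1.73 ± 0.16, adjusted p = 0.000943), in ImP (-1.23 ± 0.16, adjusted p = 0.00564), and in DSS_ImP against ImP (-1.12 ± 0.16, adjusted p = 0.00165). Against DSS it fell by 0.63 ± 0.16 (adjusted p = 0.0352), but this call was lost without DSS 5, which had the highest level of its group (-0.37, adjusted p = 0.101), without DSS_ImP 2 (adjusted p = 0.118) and without DSS_ImP 3 (adjusted p = 0.137).

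Ces1f (ENSMUSG00000031725), another lipid-hydrolysing member of the subfamily, fell in all 4 comparisons. It measured 233, 201 and 180 CPM in Ctrl 1, 4 and 5, and 82.98, 100 and 79.3 CPM in ImP 1, 3 and 4. It measured 51.1, 60.7 and 74.4 CPM in DSS 2, 3 and 5, and 19.2, 19.8 and 31.6 CPM in DSS_ImP 2, 3 and 4. As with Ces1d, the 4 groups were separate and in the same order, and the DSS_ImP libraries lay well below the DSS libraries. Ces1f fell by 1.72 ± 0.20 in DSS (adjusted p = 0.00202) and by 1.23 ± 0.20 in ImP (adjusted p = 0.0141, and above the threshold at up to 0.0639 without Ctrl 1 or Ctrl 4). In DSS_ImP it fell by 1.40 ± 0.20 against DSS (adjusted p = 0.00484) and differed from ImP by -1.898 ± 0.20 (adjusted p = 0.000409).

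Of the Ces2 genes, Ces2a, Ces2c and Ces2e moved most alike, and the sequences before their starts are shown for that reason. The Ces2 genes lie side by side on the plus strand of chromosome 8, in the order Ces2a, Ces2b, Ces2c, Ces2d-ps, Ces2e, Ces2f, Ces2g and Ces2h, while the Ces1 genes form a separate cluster on the minus strand of the same chromosome. RefSeq promoter windows on GRCm38.p6 were matched for 5 of the 8 members (Ces1g, Ces2a, Ces2c, Ces2e and Ces2g). The 150 bases upstream of the RefSeq start of the 4 Ces2 genes are given on the plus strand, 5′ to 3′, at chr8:104733853-104734002 (Ces2a), chr8:104846918-104847067 (Ces2c), chr8:104926110-104926259 (Ces2e) and chr8:104961568-104961717 (Ces2g). Capitals mark runs of at least 8 letters that at least 3 of the 4 windows share.
Ces2a: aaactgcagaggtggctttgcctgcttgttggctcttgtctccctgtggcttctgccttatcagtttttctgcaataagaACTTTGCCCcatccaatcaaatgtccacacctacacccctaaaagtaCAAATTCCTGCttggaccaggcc
Ces2c: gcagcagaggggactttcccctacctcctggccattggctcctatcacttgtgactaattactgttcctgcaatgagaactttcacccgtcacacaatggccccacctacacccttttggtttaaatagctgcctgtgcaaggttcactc
Ces2e: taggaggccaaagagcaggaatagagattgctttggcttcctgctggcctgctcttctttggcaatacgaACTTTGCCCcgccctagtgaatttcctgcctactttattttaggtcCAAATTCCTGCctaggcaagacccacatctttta
Ces2g: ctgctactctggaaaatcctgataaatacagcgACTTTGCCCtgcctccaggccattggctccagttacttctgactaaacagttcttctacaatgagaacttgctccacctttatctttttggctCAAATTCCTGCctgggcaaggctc
The shared runs were ACTTTGCCC, found on the gene strand in 0.0791% of all 32851 RefSeq windows of this length, and CAAATTCCTGC, found in 0.0183%. Both occurred in Ces2a, Ces2e and Ces2g, and neither in Ces2c or Ces1g. The runs did not sort with the readout: Ces2g, whose pattern differed from the others, held both, and Ces2c, whose pattern was like that of Ces2a and Ces2e, held neither. Among motifs searched in the full 250 bases upstream, the HNF4 core CAAAGTCCA (both strands, 0.384% of all windows) was in 0 of the 5 member windows, and AGGTCA (both strands, 14% of all windows) was in 1. The CDX motif TTTATG (both strands, 10.8% of all windows) was in 2 of the 5. The palindromic HNF1 consensus (both strands, 0.00913%) and TATAAA (gene strand, 7.59%) were in 0 of the 5. Only exact matches to each motif were counted, so near matches would be missed.

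Ces2c (ENSMUSG00000061825), an intestinal hydrolase of acylglycerols, was the most abundant of the 8 per transcript length and fell in each of the 4 comparisons. It measured 521, 483 and 424 CPM in Ctrl 1, 4 and 5, and 319, 213 and 236 CPM in ImP 1, 3 and 4. It measured 298, 285 and 254 CPM in DSS 2, 3 and 5, and 128, 120 and 156 CPM in DSS_ImP 2, 3 and 4. ImP and DSS overlapped, at 53.7% and 58.6% of the Ctrl mean, and DSS_ImP, at 28.3%, lay below both. Ces2c fell in DSS_ImP by 1.05 ± 0.15 against DSS (adjusted p = 0.00499) and by 0.93 ± 0.15 against ImP (adjusted p = 0.00338). The falls of 0.77 ± 0.15 in DSS (adjusted p = 0.0202) and of 0.90 ± 0.15 in ImP (adjusted p = 0.0163) did not hold when single libraries were left out. The first lost its call without Ctrl 1, Ctrl 4, DSS 3 or DSS 5 (adjusted p up to 0.0871) and the second without Ctrl 1, Ctrl 4, ImP 3 or ImP 4 (up to 0.0751). Its transcripts share 34.3% of their 50-base windows with other carboxylesterase transcripts of GENCODE M21, 32.7% of them with the pseudogene Ces2d-ps, so reads of this pair may have been split between them.

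Ces2a (ENSMUSG00000055730), also an endoplasmic reticulum hydrolase of the intestine, had its largest difference between DSS_ImP and DSS. Its levels were 257, 292 and 203 CPM in Ctrl 1, 4 and 5, and 188, 136 and 131 CPM in ImP 1, 3 and 4. They were 183, 223 and 191 CPM in DSS 2, 3 and 5, and 62.7, 66.7 and 82.3 CPM in DSS_ImP 2, 3 and 4. All 3 DSS_ImP libraries lay below the other 9, and DSS overlapped both Ctrl and ImP. Ces2a fell in DSS_ImP by 1.496 ± 0.17 against DSS (2.82-fold lower, adjusted p = 0.00419) and by 1.10 ± 0.17 against ImP (adjusted p = 0.00245). Its difference was -0.33 ± 0.17 in DSS (adjusted p = 0.377; 95% interval -0.70 to 0.035) and -0.73 ± 0.17 in ImP, where the adjusted p of 0.0519 just missed the threshold and passed without Ctrl 5, ImP 1 or DSS_ImP 4 (down to 0.0307).

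Ces2e (ENSMUSG00000031886), the second most abundant of the 8 and also able to hydrolyse acylglycerols, followed the same course as Ces2a. It measured 352, 386 and 296 CPM in Ctrl 1, 4 and 5, and 336, 195 and 191 CPM in ImP 1, 3 and 4. It measured 267, 269 and 309 CPM in DSS 2, 3 and 5, and 142, 126 and 150 CPM in DSS_ImP 2, 3 and 4. The DSS_ImP libraries lay below all others, DSS overlapped Ctrl, and ImP 1 lay inside the range of Ctrl while ImP 3 and ImP 4 lay below it. Ces2e fell by 1.02 ± 0.19 against DSS (adjusted p = 0.011; 0.0505 without DSS 5 and 0.0561 without DSS_ImP 3). Against ImP it fell by 0.79 ± 0.19 (adjusted p = 0.0246), but not past the threshold without ImP 1 (-0.47, adjusted p = 0.0551), DSS_ImP 2 (0.0679) or DSS_ImP 3 (0.105). Its differences from Ctrl, -0.29 ± 0.19 in DSS and -0.52 ± 0.19 in ImP, did not pass (adjusted p = 0.530 and 0.213; without ImP 1, the second was -0.84 with an adjusted p of 0.0176).

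Ces2b (ENSMUSG00000050097) was a low-level member. It measured 17.2, 20.9 and 16.3 CPM in Ctrl 1, 4 and 5, and 7.58, 2.29 and 4.01 CPM in ImP 1, 3 and 4. It measured 5.25, 8.72 and 10.5 CPM in DSS 2, 3 and 5, and 3.38, 2.02 and 1.72 CPM in DSS_ImP 2, 3 and 4. Ctrl lay above every other library, and DSS above DSS_ImP, but ImP overlapped both. It fell by 1.97 ± 0.41 in ImP against Ctrl (adjusted p = 0.033) and by 1.78 ± 0.41 in DSS_ImP against DSS (adjusted p = 0.0227). The first call was lost when Ctrl 1, Ctrl 4, Ctrl 5, ImP 3 or ImP 4 was left out (adjusted p up to 0.115), and the second without DSS 5 (0.0895) or DSS_ImP 3 (0.102). The differences of -1.15 ± 0.39 in DSS against Ctrl (adjusted p = 0.164) and of -0.96 ± 0.40 in DSS_ImP against ImP (adjusted p = 0.172) did not pass.

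Ces2g (ENSMUSG00000031877) differed in direction from the other 7 in ImP against Ctrl and in DSS_ImP against DSS. In DSS against Ctrl and in DSS_ImP against ImP its difference had their direction. It measured 5.19, 6.14 and 8.56 CPM in Ctrl 1, 4 and 5, and 27.5, 6.68 and 14.5 CPM in ImP 1, 3 and 4. It measured 4.32, 7.19 and 4.66 CPM in DSS 2, 3 and 5, and 7.85, 14.8 and 4.72 CPM in DSS_ImP 2, 3 and 4. The groups overlapped, and the high values belonged to single libraries, ImP 1 above all. None of its differences passed. The adjusted p was 0.221 in ImP against Ctrl (1.29 ± 0.49, or 0.68 without ImP 1). It was 0.383 in DSS_ImP against DSS (0.76 ± 0.49, or 0.23 without DSS_ImP 3). In DSS_ImP against ImP it was 0.350 (-0.83 ± 0.48, or -0.22 without ImP 1), and in DSS against Ctrl 0.850 (-0.30 ± 0.49).

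**Figure D2:**
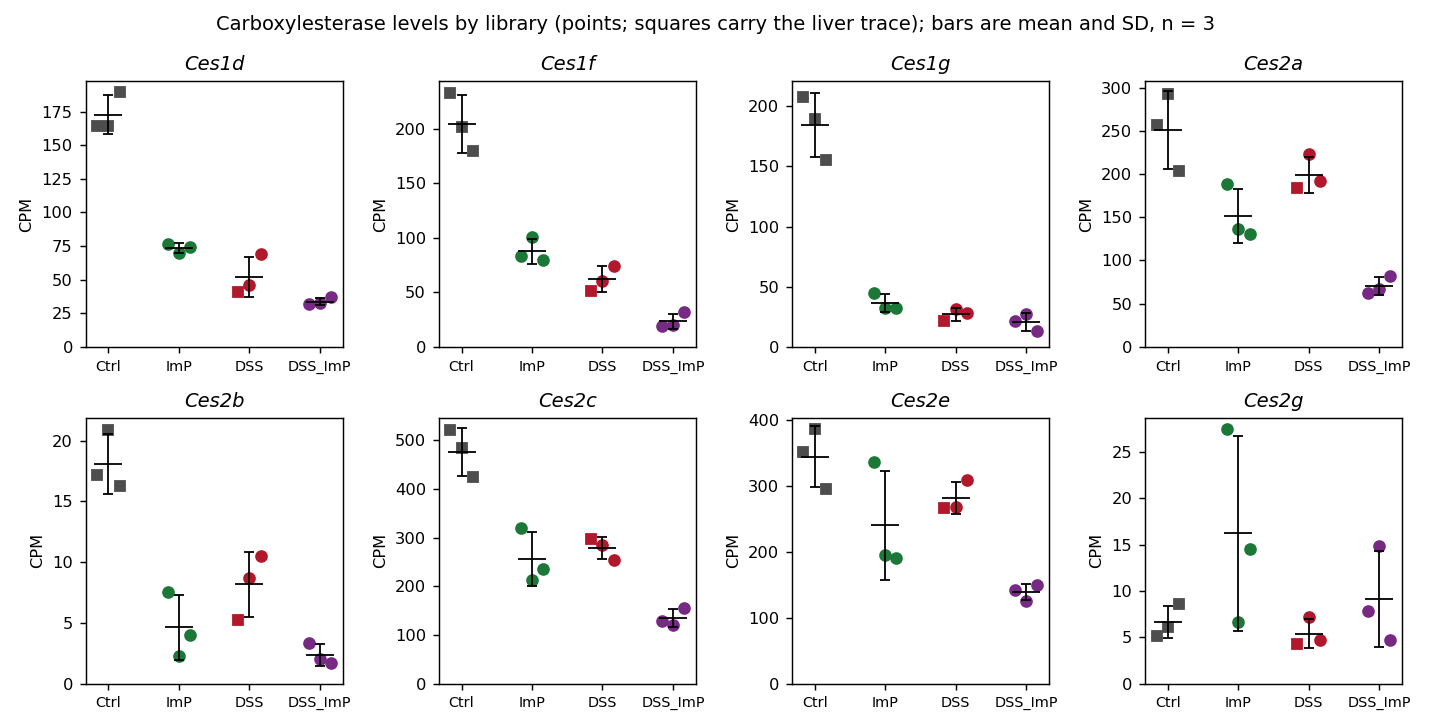
CPM (vertical axis, from 0) of each of the 8 carboxylesterases in the 4 groups. Points are libraries, squares mark the 4 libraries with the liver trace, and horizontal bars with whiskers are mean ± SD (n = 3). Ces1g in the treated groups lies between 13.0 and 45.1 CPM, below 155 to 208 CPM in Ctrl, and Ces2g alone peaks in ImP 1, at 27.5 CPM.

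The comparison of DSS with Ctrl asks what differs with DSS in the absence of ImP. Of the 8 genes, 4 fell (Ces1d, Ces1f, Ces1g and Ces2c) and 0 rose, where 1.59% of all tested genes were called lower, 1.21% higher and 2.80% in either direction. All 3 Ces1 members were among the 4. Since the 8 were chosen with earlier results known, the shares set beside them here and below are a description, not a test. The median log2 change of the 8 was -0.96, against -0.02 for all tested genes. For 5 of the 8 the groups did not overlap, as for 22.4% of all tested genes.

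ImP was compared with Ctrl to ask what differs with ImP in the absence of DSS. Here 5 of the 8 fell (Ces1d, Ces1f, Ces1g, Ces2b and Ces2c) and 0 rose, where 0.929% of all tested genes were called lower, 1.06% higher and 1.99% in either direction. The median was -1.06, against -0.0084 for all tested genes, and 6 of the 8 did not overlap between the groups (21.2% of all tested genes). This comparison shares the 3 Ctrl libraries with the one before, so their likeness is not independent. The count was 2 without Ctrl 1 or Ctrl 4, and 3 without ImP 3 or ImP 4. Ces1d and Ces1g kept their call whichever library was left out, with an adjusted p of at most 0.0366 for each.

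DSS_ImP against DSS is the comparison in the series text, colitis with and without ImP. Of the 8, 6 fell (Ces1d, Ces1f, Ces2a, Ces2b, Ces2c and Ces2e) and 0 rose, where 4.04% of all tested genes were called lower, 3.99% higher and 8.03% in either direction. The median was -1.03, against 0.02 for all tested genes, and 6 of the 8 did not overlap (28.6% of all tested genes). The count was 3 without DSS 5 or without DSS_ImP 3, when Ces1f, Ces2a and Ces2c were left.

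DSS_ImP against ImP asks what differs with DSS in colon that received ImP. Of the 8, 5 fell (Ces1d, Ces1f, Ces2a, Ces2c and Ces2e) and 0 rose, where 4.92% of all tested genes were called lower, 4.41% higher and 9.33% in either direction. The median was -0.94, against 0.0041 for all tested genes, and 6 of the 8 did not overlap (28.2% of all tested genes). It shares the DSS_ImP libraries with the comparison before. Pancreas markers moved alongside in both, with 2 of 13 lower against DSS (4.04% of all tested genes) and 8 of 13 lower against ImP (4.92%). Their part in the falls was not tested. In bulk tissue, fewer cells of a type and less RNA per cell cannot be told apart in any of these values.

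**Figure D3:**
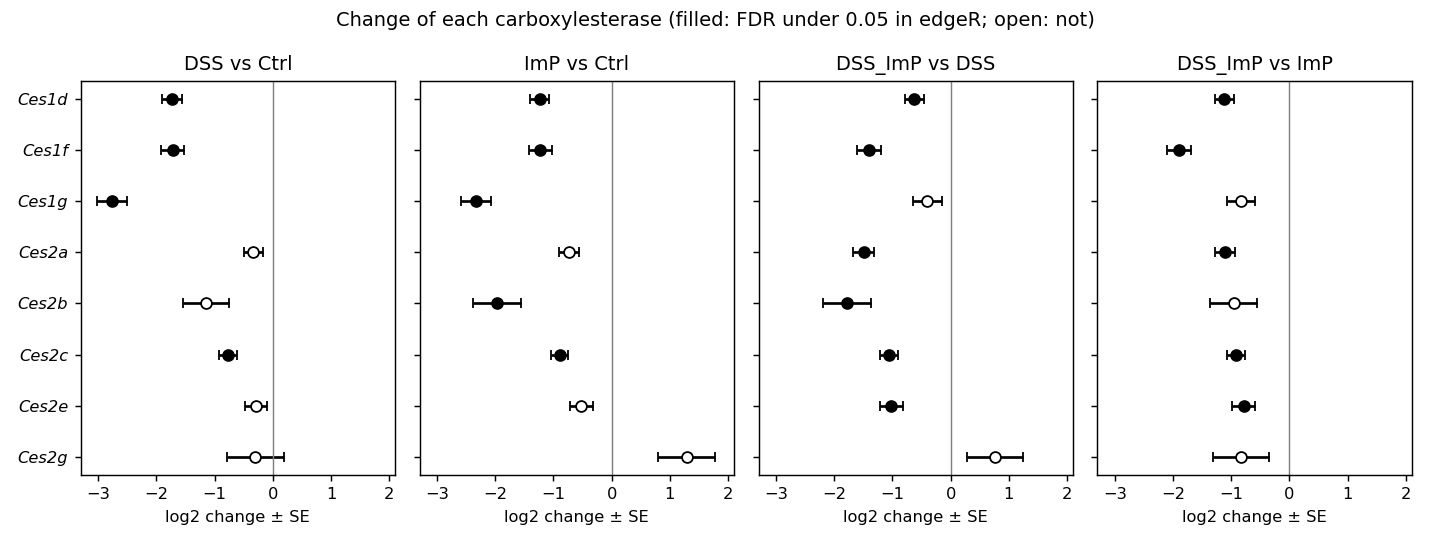
Log2 change ± SE (horizontal axis) of each carboxylesterase in the 4 comparisons, from edgeR; filled points had an adjusted p under 0.05. Ces1g lies at -2.76 and -2.33 in the 2 comparisons with Ctrl, with Ces2b next in ImP at -1.97, and near the other members or closer to 0 in the 2 comparisons of DSS_ImP.

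Whether the DSS change depended on ImP was tested as an interaction, subtracting the change from Ctrl to DSS from the change from ImP to DSS_ImP. In edgeR 0 of the 8 were called, as were 0 of all tested genes (0%). At an unadjusted p under 0.05 there were 3 members, and 11.8% of all tested genes, and DESeq2 called 2 members and 710 genes. Ces1g came nearest, at 1.93 ± 0.35 (adjusted p = 0.0588), since it fell by 2.76 from Ctrl to DSS and differed by only -0.83 from ImP to DSS_ImP. It was called with a filter of 1 CPM in 6 libraries (adjusted p = 0.0476), in limma on log2(FPKM + 1) (0.0474), in DESeq2 (9.59e-06) and without DSS_ImP 4 (0.00923), and missed the threshold when any other library was left out (up to 0.145). DESeq2 also called Ces2a (-0.78, adjusted p = 0.0481), for which edgeR gave -0.77 ± 0.24 and an adjusted p of 0.210.

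The liver trace was checked in the genes themselves. The 25 liver markers, all in the table, gave sums from 180 to 218 CPM in the Ctrl libraries, from 41.1 to 78.2 with ImP, from 57.5 to 220 with DSS and from 38.5 to 95.4 with both agents. None of the 25 was at 0 in the libraries with the trace, and 3 to 13 were at 0 in each of the others. In ImP against Ctrl 5 of the 25 fell, where 0.929% of all tested genes were called lower. In DSS against Ctrl 0 of the 25 fell, where 1.59% of all tested genes were called lower. Ces3a and Ces1c, carboxylesterases known in the mouse chiefly from liver and not among the 8, followed albumin. Ces3a lay between 4.80 and 6.76 CPM in the 4 libraries with the trace and at no more than 0.276 CPM in the other 8. Ces1c lay between 2.22 and 2.99 CPM with the trace and at no more than 0.419 CPM without it. In DSS 2 their ratios to the Ctrl mean were 0.849 and 0.821, close to the 0.823 of albumin. The same ratio was 0.116 for Ces1g, 0.237 for Ces1d and 0.249 for Ces1f. Albumin in DSS 2 was 37.0 CPM, and Ces1g there was 21.3 CPM, below the 30.0 CPM mean of DSS 3 and DSS 5. Ces1d and Ces1f were likewise lower in DSS 2 than in the 2 other DSS libraries. These ratios rest on DSS 2 alone, and the part of liver transcripts in the falls from Ctrl was not tested.

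**Figure D4:**
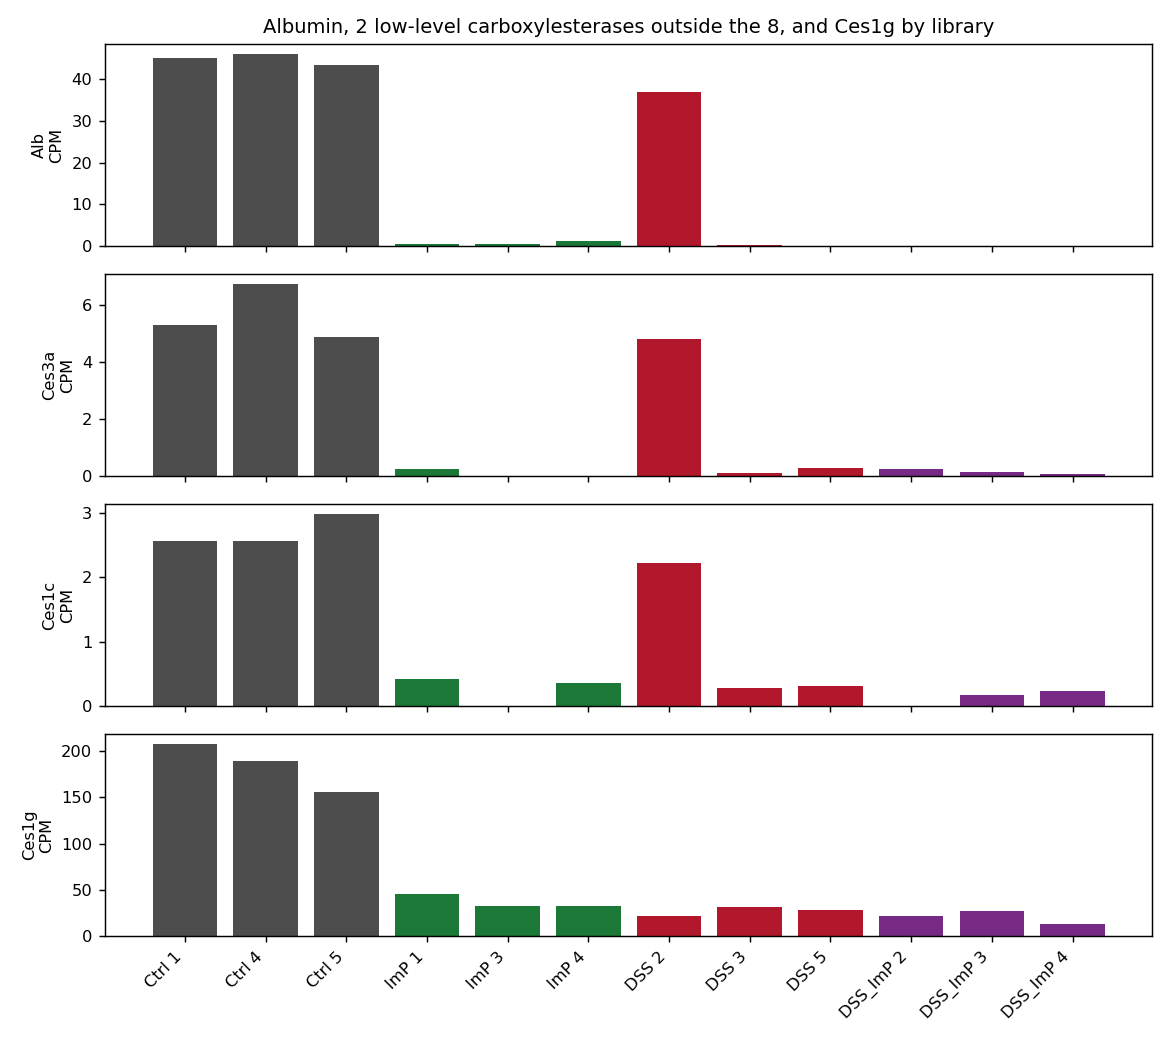
CPM (vertical axes) of Alb, Ces3a, Ces1c and Ces1g in each library, coloured by group. Alb, Ces3a and Ces1c are high in the 3 Ctrl libraries and in DSS 2, whereas Ces1g is high in Ctrl only and measures 21.3 CPM in DSS 2.

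Among the 4 libraries that carry the trace, DSS 2 can be set beside the 3 Ctrl libraries. The log2 differences were -3.09 for Ces1g, -2.05 for Ces1d, -1.98 for Ces1f, -1.76 for Ces2b and -0.65 for Ces2c. They are given as values with no test, since with 1 DSS library the spread comes from the Ctrl libraries alone. Without DSS 2 the 4 calls held, with Ces1g at -2.62 (adjusted p = 0.0034) and Ces2c at -0.82 (adjusted p = 0.0493). All Ctrl and no ImP libraries carry the trace, and DSS 2 is the only DSS library that does. With the trace as a term, DSS against Ctrl is therefore again DSS 2 against Ctrl. The ImP change in that fit also depends on DSS 2, through its difference from DSS 3 and DSS 5. Its values for ImP against Ctrl, given with no test, were -2.80 for Ces1g, -1.7 for Ces1d and -1.605 for Ces1f. Those of Ces2b and Ces2c were -2.82 and -0.73. Ces1d, Ces1f, Ces2b and Ces2c lost their call in ImP in that fit.

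Some markers of the gut axis also moved with the groups. Hoxa13, a transcription factor gene of the hindgut, lay between 2.14 and 8.60 CPM in Ctrl and between 24.0 and 42.4 CPM in the 9 other libraries, and rose in DSS (2.68 ± 0.43, adjusted p = 0.00628) and in ImP (3.04 ± 0.43, adjusted p = 0.00796). Thus the libraries high in Ces1g were those low in Hoxa13. The summed level of 6 posterior Hox genes was 13.0 to 33.5 CPM in Ctrl, 72.5 to 211 in ImP, 41.0 to 53.6 in DSS and 63.4 to 199 in DSS_ImP. Hoxa13 alone of the 6 was called higher in either comparison with Ctrl, beside 1.21% of all tested genes in DSS and 1.06% in ImP. The median log2 change of the 6 was -0.25 in DSS and 3.34 in ImP, against -0.02 and -0.0084 for all tested genes. In 5 libraries 1 of the 6 markers was at 0. The labels do not give the position along the colon, and the part of these differences in the falls from Ctrl was not tested.

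Within groups, Hoxd13 of this list stood beside Ces2g, but Hoxa13 did not. Hoxd13, a gene of the most posterior gut, was 48.9 CPM in ImP 1 and 29.1 CPM in DSS_ImP 3, 12.3 CPM in DSS_ImP 2 and at most 2.46 CPM elsewhere. Ces2g was highest in ImP 1 (27.5 CPM) and DSS_ImP 3 (14.8 CPM), followed by ImP 4 (14.5 CPM), where Hoxd13 was 2.46 CPM. Hoxa13 was 27.7, 38.2 and 42.4 CPM in ImP 1, 3 and 4, and 38.5, 36.1 and 31.6 CPM in DSS_ImP 2, 3 and 4. In neither group was its highest library that of Ces2g. Ces2f, the neighbour of Ces2g on the chromosome, was 23.2 CPM in ImP 1 and 17.0 CPM in DSS_ImP 3, and at most 2.31 CPM in the other 10 libraries. Ces2f was not called in any comparison, and the part of tissue position in its spread or that of Ces2g was not tested.

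**Figure D5:**
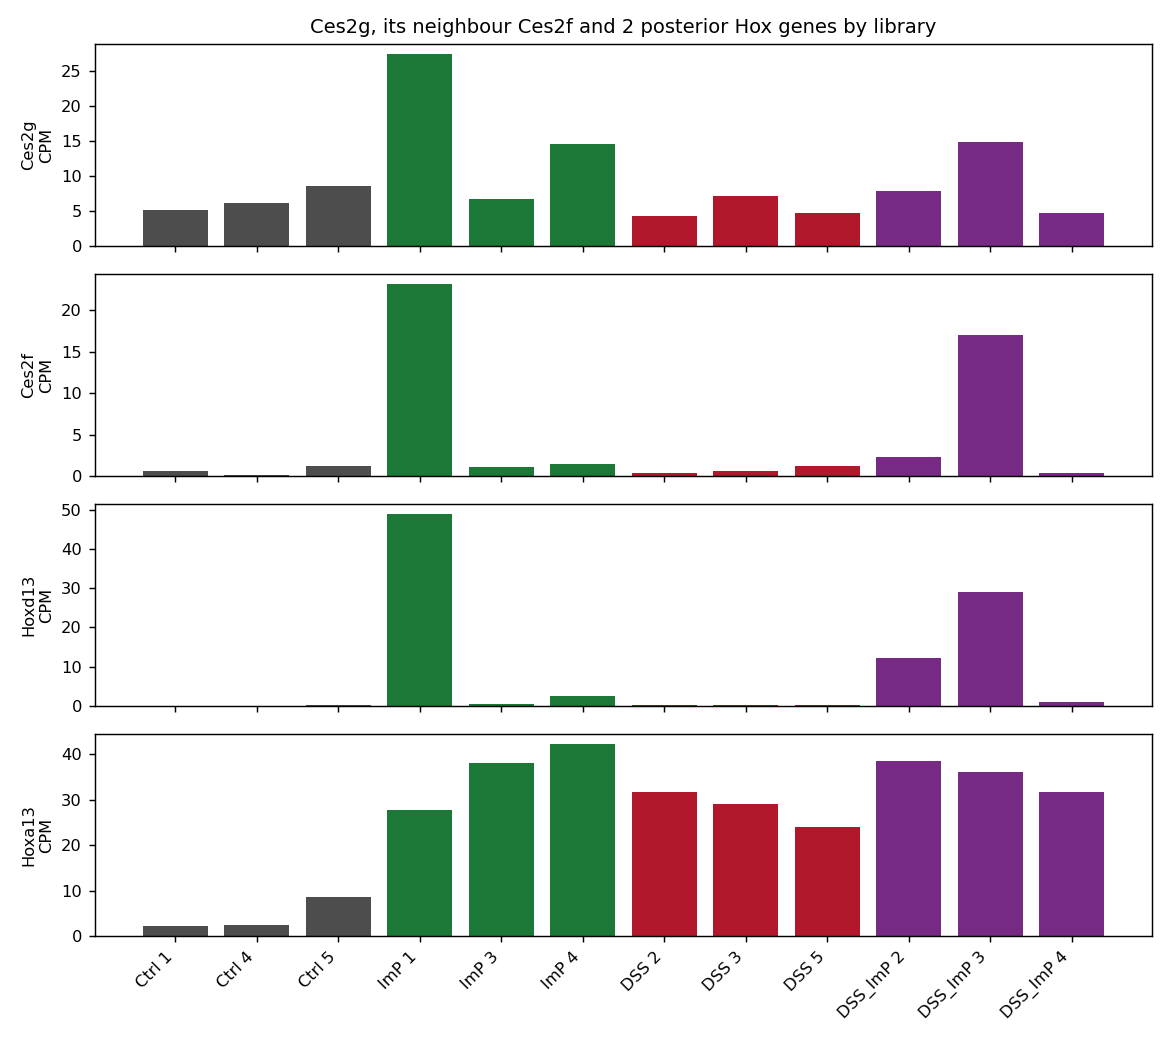
CPM (vertical axes) of Ces2g, Ces2f, Hoxd13 and Hoxa13 in each library, coloured by group. ImP 1 and DSS_ImP 3 are highest for Ces2g, Ces2f and Hoxd13 (27.5, 23.2 and 48.9 CPM in ImP 1), whereas Hoxa13 is low in the Ctrl libraries, at no more than 8.60 CPM.

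Other cell types varied as follows. The 12 epithelial markers summed to 15752 to 18004 CPM in Ctrl and 19018 to 20433 in DSS, with a median log2 change of 0.14 between them. In DSS_ImP the sum was 15452 to 18346 CPM, and 2 of the 12 fell against DSS (Vil1 by 0.48 and Cdx2 by 0.76). Of all tested genes 4.04% were called lower there and 3.99% higher. Taken over all 12 epithelial markers, the median against DSS was -0.36. The 8 leukocyte markers summed to 419 to 1185 CPM in DSS_ImP and to 131 to 246 CPM in all other libraries. Of the 8, 5 were called higher and 1 lower in DSS_ImP against DSS, beside 3.99% and 4.04% of all tested genes. Fat markers varied within groups. The 11 summed to 257 to 460 CPM in Ctrl, 151 to 413 in ImP, 161 to 404 in DSS and 64.9 to 269 in DSS_ImP. Adipoq, 1 of the 11, spread more widely than this sum. It was 0.473 CPM in Ctrl 4 and 35.9 CPM in Ctrl 5, where Ces1d was 165 and 190 CPM. In DSS 2, 3 and 5 Adipoq was 0.831, 11.5 and 32.8 CPM, and Ces1d was 41.0, 46.1 and 69.0 CPM, in the same order. The order was opposite in ImP 1, 3 and 4: 0.806, 36.8 and 15.1 CPM for Adipoq, 76.6, 69.7 and 74.2 CPM for Ces1d. DSS_ImP 4 was the highest of its group for both genes, at 18.2 and 36.8 CPM. The 13 pancreas markers summed to 49.2 to 51.2 CPM in Ctrl, 74.2 to 91.4 in ImP, 39.8 to 66.6 in DSS and 43.0 to 56.9 in DSS_ImP. None of them was at 0 in the ImP libraries, DSS 3 or DSS 5, whereas 8 to 10 were at 0 in the DSS_ImP libraries, 9 in DSS 2 and 2 to 9 in the Ctrl libraries. The 6 smooth muscle markers summed to 1504 to 2090 CPM in Ctrl and 2218 to 4138 in ImP. In DSS they summed to 1758 to 2648 CPM and in DSS_ImP to 2483 to 3401. Their median log2 change from Ctrl was 0.42 in DSS and 0.82 in ImP. The part of changed cell content in the falls was not tested.

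Of the 12 other carboxylesterase genes, 8 passed the filter on low counts. Ces4a had 0 counts in every library. Ces3b reached at most 1.48 CPM in any library, Ces1b 0.790, Ces2h 0.482, Ces1a 0.257, Ces1h 0.217 and Ces5a 0.130 CPM. Ces1e fell in DSS_ImP against DSS (-1.26 ± 0.22, adjusted p = 0.0085) and against ImP (-1.35 ± 0.23, adjusted p = 0.00338), with 26.2 to 30.7 CPM in Ctrl and 5.11 to 9.61 CPM in DSS_ImP. The pseudogene Ces2d-ps fell in DSS against Ctrl (-0.80 ± 0.19, adjusted p = 0.0433), in DSS_ImP against DSS (-1.38 ± 0.19, adjusted p = 0.00436) and in DSS_ImP against ImP (-1.42 ± 0.19, adjusted p = 0.00109), as did Ces2c, with which it shares sequence. No other gene of the 12 was called in any of the 4 comparisons.

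Enzymes of related function were compared next. Of 20 other ester and lipid hydrolases, 3 fell and 0 rose in DSS against Ctrl (median -0.38), 2 and 0 in ImP against Ctrl, 4 and 0 in DSS_ImP against DSS (median -0.39), and 5 and 0 in DSS_ImP against ImP. Of all tested genes, 1.59%, 0.929%, 4.04% and 4.92% were called lower in the same order. Aadac, an endoplasmic reticulum deacetylase with substrates in common with carboxylesterases, was 33.2 to 49.2 CPM in Ctrl, 23.0 to 48.2 in ImP, 12.1 to 16.3 in DSS and 11.3 to 13.7 in DSS_ImP. Aadac fell in DSS (-1.52 ± 0.24, adjusted p = 0.00641), and its ImP libraries overlapped Ctrl (-0.12 ± 0.24, adjusted p = 0.880). Bche, butyrylcholinesterase, fell in DSS against Ctrl (-0.83 ± 0.19, adjusted p = 0.0405), in ImP against Ctrl (-0.94 ± 0.19, adjusted p = 0.0325) and in DSS_ImP against DSS (-1.02 ± 0.19, adjusted p = 0.0104).

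Genes of lipid absorption and export, the pathway in which intestinal carboxylesterases act, gave mixed results. Of 20, 2 fell and 0 rose in DSS against Ctrl: Fabp2, the intestinal fatty acid binding protein (-2.10 ± 0.32, adjusted p = 0.00553), and Slc27a4, a fatty acid transporter (-0.52 ± 0.12, adjusted p = 0.048). In DSS_ImP against DSS, Slc27a4 fell again (-0.82 ± 0.13, adjusted p = 0.00539) and Abca1, a cholesterol exporter, rose (1.19 ± 0.26, adjusted p = 0.0179). In ImP against Ctrl 2 fell and 0 rose, and in DSS_ImP against ImP 2 fell and 3 rose. Of all tested genes, 1.59% were called lower in DSS and 0.929% in ImP against Ctrl. In DSS_ImP, 4.04% were called lower and 3.99% higher against DSS, and 4.92% and 4.41% against ImP.

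Among 16 nuclear receptors and other factors known to regulate carboxylesterase genes, of which 15 were tested, 2 fell and 0 rose in DSS against Ctrl. These were Nr1i3, the constitutive androstane receptor (-2.38 ± 0.46, adjusted p = 0.0172, at only 0.309 to 3.69 CPM in the 2 groups), and Nfe2l2, the oxidative stress factor NRF2 (-0.43 ± 0.10, adjusted p = 0.0345). In DSS_ImP against DSS 8 fell and 0 rose, among them Nr3c1, the glucocorticoid receptor (-0.59 ± 0.08, adjusted p = 0.00436), and Ppara, a fatty acid sensor (-1.41 ± 0.26, adjusted p = 0.00896). Rxra, the shared partner of many such receptors (-0.56 ± 0.11, adjusted p = 0.0113), and Hnf4a, a factor of the intestinal epithelium (-0.48 ± 0.12, adjusted p = 0.0272), fell as well. In ImP against Ctrl 2 of the list fell, and in DSS_ImP against ImP 4. The shares of all tested genes called lower were 1.59% in DSS and 0.929% in ImP against Ctrl. For DSS_ImP they were 4.04% against DSS and 4.92% against ImP.

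Likeness of pattern was measured as the root mean square difference of centred log2 levels over the 12 libraries, as a description. It is not scaled to how far a gene moves. The root mean square around a gene's own mean ran from 0.53 (Ces2e) to 1.26 (Ces1g) among the members. Distances can therefore be small where changes are small, and their sizes do not rank likeness between members. Among the 8, the closest pairs were Ces2a with Ces2c (0.22), Ces2a with Ces2e (0.24) and Ces2c with Ces2e (0.25). Ces1d and Ces1f differed by 0.40 and Ces1d and Ces1g by 0.55, while Ces2g lay at least 0.97 from every other member. Of 11767 other genes, the most like Ces1g were Slc16a9, a monocarboxylate transporter family member (0.38), Cyp4b1, a cytochrome P450 (0.42), and Defb37, a defensin (0.47). The most like Ces1f were Car1, a carbonic anhydrase of colonocytes (0.35), Cyp2c55 (0.36) and Rhbg, an ammonium transporter (0.36). The nearest to Ces1d were Smim38 (0.30), H2-Q10 (0.30) and the drug efflux pump Abcb1a (0.30), and to Ces2c the water channel Aqp11 (0.16), Acsf2 (0.17) and Tmem171 (0.17). Among the nearest to Ces2a were Aspg (0.24) and Mfap3l (0.24), and the nearest to Ces2e were Paqr5 (0.15), Rnf186 (0.18) and Papss2 (0.18). For Ces2b they were Naaladl1 (0.34), Cyp2d26 (0.36) and Tsku (0.37), and among the nearest to Ces2g were Slc36a1 (0.25) and B4galnt3 (0.33).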

How the data were processed

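Messenger RNA of mouse colon was sequenced; the library titles put 12 libraries into 4 groups of 3. For each gene the authors deposited estimated counts as whole numbers, not scaled for library size, and FPKM values were deposited beside them. Per the labels, poly(A) RNA was captured with a dUTP kit that keeps strand. A strand setting for counting is not given in the sources. The submitters' processing notes name StringTie 1.3.4d, HISAT2 2.0.4, cutadapt 1.9 and the build GRCm38. Because gene coordinates matched GENCODE M21 for 663 of 33695 identifiers only, none from the table is given.

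Counts were filtered with filterByExpr by group (22279 genes left), normalised by TMM and tested two-sided in R 4.3.3 with edgeR 4.0.16 (quasi-likelihood, all 12 libraries, 1 coefficient per group, Benjamini-Hochberg FDR 0.05 over the tested genes); the fit was tested on simulated data. The common biological coefficient of variation was 0.312. CPM used TMM-scaled library sizes, and the SE is the log2 change divided by the root of the F statistic; 95% intervals use the t distribution with the degrees of freedom of that fit. Where a count is 0, the limit uses 12 counts, since 1 read pair adds about 4 counts. Alternatives were DESeq2 1.42.0, limma 3.58.1 on log2(FPKM + 1) or log2(FPKM + 0.1), other scaling and filters, counts divided by 4, a fit of the compared groups alone, a block for replicate number, the liver trace (Alb of at least 10 CPM) as a batch, and each library left out. Shared 50-base windows were counted between GENCODE M21 transcripts. All sample columns of the table were used. Named genes were all 8 members, up to 4 called members of each list with the smallest p in DSS against Ctrl and in DSS_ImP against DSS, every other family gene, and the 3 genes most like each member, some of which are not reported here; single marker genes named beside a result (Hoxa13, Hoxd13, Adipoq, Vil1, Cdx2) were chosen after their values were seen. The members and lists were chosen with earlier results of these data known.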

Additional observations from a re-analysis of the deposited data

How the results depend on the processing

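Of 744 alternative values for the 4 pairwise differences of the 8 members, 674 kept direction and side of the threshold, 53 lost the call, 17 gained it and 0 changed sign. The number of members called with 1 library left out ran from 3 to 4 in DSS against Ctrl, 2 to 7 in ImP against Ctrl, 3 to 6 in DSS_ImP against DSS, 4 to 5 in DSS_ImP against ImP and 0 to 1 in the interaction. Over all genes it ran from 268 to 779, 49 to 527, 491 to 2616, 997 to 2490 and 0 to 476 in the same order. Sign changes occurred with 1 library left out in the uncalled interaction values of Ces2b (-0.17 to 0.74), Ces2c (-0.27 to 0.036) and Ces2g (-1.08 to 0.083).

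DESeq2 called 1497, 1291, 3188 and 3163 genes in the 4 comparisons and 710 in the interaction, with 2 members there. No filter on low counts gave 231 genes in ImP against Ctrl. Limma on log2(FPKM + 1) without a filter gave 1096 in DSS_ImP against DSS and 3 in the interaction. Fitting only the groups compared gave 721 in DSS_ImP against DSS and 1153 in DSS_ImP against ImP. In the interaction the filter of 1 CPM in 6 libraries gave 46 genes and 1 member, limma on log2(FPKM + 1) 72 and 1, limma on log2(FPKM + 0.1) 17 genes, and counts divided by 4 gave 18. Within the liver-trace libraries 257 genes were called in DSS against Ctrl, with 1 DSS library assumed to vary like the Ctrl libraries. With the trace as a term, 116 genes were called there, and 4 genes and 1 member in ImP against Ctrl. Pancreatic transcripts were not used to define this batch. Leaving out the 3 Ctrl libraries, chosen after seeing the data, ended the call of Ces1d in DSS_ImP against DSS (adjusted p = 0.0608).

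With the replicate block, 2 members were called in DSS against Ctrl and 0 in ImP against Ctrl, and 10, 0, 351, 688 and 2 genes in the 5 tests. Libraries with the same number correlated at only -0.11 to 0.0827 in their deviations. Such correlations over all genes cannot show whether these libraries shared a batch that affects some genes. Differences as small as those of Ces2a and Ces2e in DSS (-0.33 and -0.29) did not pass with 3 libraries a group, which does not show that they are absent. The causes of these shifts were not tested.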
